A study of Drosophila simulans x Drosophila sechellia and Drosophila simulans x Drosophila mauritiana and Drosophila mauritiana x Drosophila simulans with 63 samples.

Results

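The transcripts described here are the 200 maternal mRNAs that were most cleared from embryos of D. simulans and D. mauritiana between stage 2 and the end of stage 5. Genes with a mean value of at least 50 at stage 2 over embryos of both species were ranked by the log2 ratio of the stage 5 mean to the stage 2 mean, with 1 added to each, and the lowest 200 of 4910 were taken. The file of this species pair lists 10955 genes, and 191 of the 200 members are also listed in each of the files that include D. sechellia. Members were thus chosen by their measured values at stages 2 and 5, and their fall in these species is given as a description with no test.

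The series holds poly(A)-selected RNA of 63 single embryos of 3 species and of their hybrids. The species were D. simulans, D. mauritiana and D. sechellia, with 1 laboratory line for each. The study's methods name an earlier study as the source of reads from the parental species. A difference between parental and hybrid embryos therefore cannot be told apart from a difference between studies. Eggs came from untreated mothers 4 to 14 days old, and the groups held 3 embryos for each species and stage. Stage 2 hybrid embryos, 3 per cross, were laid by F1 hybrid mothers mated to males of the first-named species, so that both alleles were transcribed in the mother. Late stage 5 hybrid embryos, 6 per cross, were F1 embryos of a pure-species mother and father, labelled XX or XY. The sex of the parental embryos is not given, and the paper states that X dosage compensation is incomplete at stage 5. Stage 5 species differences of X-linked members may therefore also hold a difference of sex. The crosses were sim x mau, mau x sim, sim x sec, sec x mau and mau x sec, named with the mother first. Within a stage 5 hybrid, leftover maternal mRNA carries the mother's allele, and reads of the father's allele come from the embryo's own genome or from wrong assignment. The labels do not say whether embryos of a group came from different mothers, so the p-values measure the spread between these embryos.

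In Drosophila the oocyte is loaded with mRNA by the nurse cells, and the embryo runs on this store until its own genome is transcribed. Maternal mRNAs are then removed by a maternal pathway that starts at egg activation, in which the RNA-binding protein Smaug recruits the CCR4-NOT deadenylase, and by a zygotic pathway that needs transcription in the embryo. Transcripts of egg-specific genes, needed for meiosis, axis formation or yolk uptake, are among those known to be removed early.

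The stages matched their labels. Of 27 eggshell and follicle cell markers, 25 or 26 were at 0 in each group of the 2 species, with summed values of 0 to 7.13 per embryo. The summed value of 26 zygotic patterning genes was 16.1 to 69 at stage 2 and 18301 to 39322 at stage 5. The libraries held 2146524 to 7044646 reads over variant sites. All values are scaled reads, so a change is relative to the other mRNAs of the embryo, and less RNA per cell and fewer cells with the RNA cannot be told apart.

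In the mau x sec cross the sex labels and the X-linked reads disagreed in part. In the other 4 crosses the father's share of reads from all X-linked genes was 19.5% to 24.4% in embryos labelled XX and 0.275% to 4.35% in embryos labelled XY. In mau x sec it was 0.801%, 20.8% and 21.2% in the libraries labelled XY, and 1.09%, 12% and 20.8% in those labelled XX. For this cross X-linked members are therefore kept apart, and results on autosomal members are given beside those on all members. Another limit is set by the genomes, since some members had reads of a species on 1 genome only. In the file of D. simulans with D. mauritiana these were 5 members, in that of D. simulans with D. sechellia 11, and in that of D. mauritiana with D. sechellia 4. Counts of species differences are given with and without them.

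At stage 2 the members ranged from 54.6 to 8425 scaled reads with a median of 490.3, against a median of 359 over all 4910 genes. At stage 5 their median was 6.28 and the highest member, Jabba, was at 196, whereas the median of all 4910 genes was 338. The log2 ratio ran from -9.12 to -4.83 with a median of -5.83, and the median of all genes was 0.07. A median of 1.38% of the stage 2 value was left, with at most 3.48%, and 79 members kept less than 1%. Of the 200 members, 24 had a stage 5 mean under 1 and 2 of these, CG16711 and CG31075, had no read in any stage 5 embryo of the 2 species. At the other end 43 members still had a mean of at least 20, and 12 of at least 50. The last members taken were CG17292 at -4.84, CG33156 at -4.84 and rig at -4.83, and the first genes left out were stai at -4.83, CG5966 at -4.81 and BigH1 at -4.80. The members lay on the X (40) and on 3L (45), 2R (45), 3R (36) and 2L (34), and 20% were X-linked against 16.5% of the 4910 genes.

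The lowest ratio belonged to BicC, an RNA-binding protein that recruits the CCR4 deadenylase during oogenesis. In the D. simulans assembly the file gives it an exon on chromosome 2L, 15580954 to 15581428, plus strand. Its stage 2 values were 3633, 5497 and 3848 in D. simulans embryos and 4385, 4295 and 3354 in D. mauritiana embryos. At stage 5 they were 16.4, 4.14 and 3.97, and 1.9, 1.84 and 5.35, on the D. simulans genome. All stage 5 embryos of both species were thus more than 100 times below every stage 2 embryo. In D. sechellia, which took no part in the choice, BicC had 3323, 2226 and 2671 at stage 2 and 0, 3.76 and 7.1 at stage 5 (log2 change -9.65, SE 0.80, adjusted p = 1.1e-07, limma).

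osk, whose protein assembles the germ plasm at the posterior pole, has an exon listed on chromosome 3R, 16252104 to 16252661, minus strand. It was among the most abundant members, at 8763, 7992 and 9603 in stage 2 D. simulans and 7916, 10011 and 8759 in D. mauritiana. Its stage 5 values were 10.1, 6.21 and 23.8 in D. simulans and 17.1, 12.8 and 25 in D. mauritiana, and the species overlapped at both stages. In D. sechellia osk went from 7301, 4921 and 6922 to 31.3, 15 and 14.2 (log2 change -8.31, SE 0.33, adjusted p = 1.3e-10).

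dhd, the egg-specific thioredoxin needed to remodel sperm chromatin, had the highest stage 2 mean of all members. Its values were 7975, 9826 and 12024 in D. simulans and 8514, 7341 and 8984 in D. mauritiana, and at stage 5 11.4, 20.7 and 21.8 and 22.8, 27.5 and 23.2. Both species were low at stage 5, with every D. mauritiana embryo above every D. simulans embryo. yl, the yolk protein receptor of the oocyte, had 2481, 6574 and 2932 in stage 2 D. simulans, where 1 embryo was above the other 2, and 2698, 1584 and 1478 in D. mauritiana. At stage 5 yl was at 13.9, 13.5 and 5.96 and 0, 5.51 and 7.13, and in 1 D. mauritiana embryo no read was left.

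**Figure D1:**
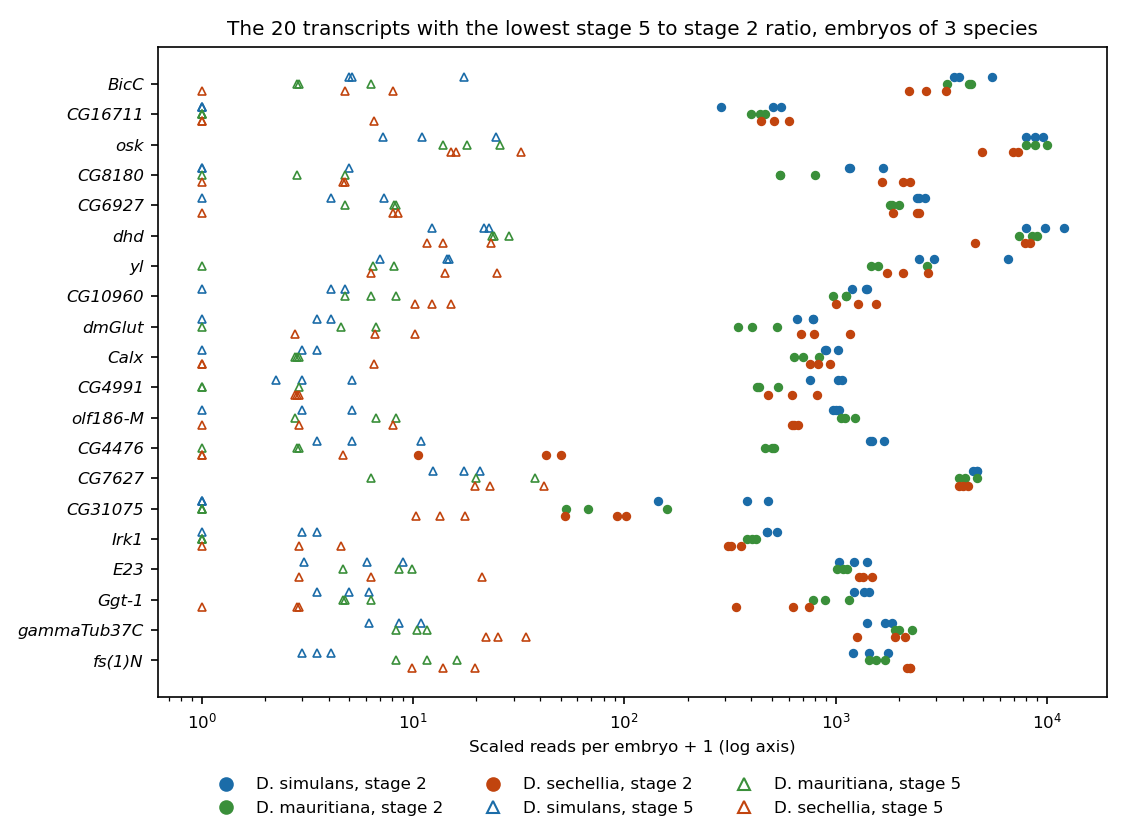
Scaled reads plus 1 per embryo on a log axis (x) for the 20 members with the lowest ratio (y), with stage 2 embryos as filled circles and stage 5 embryos as open triangles, 3 embryos per species and stage. D. simulans and D. mauritiana are read on the D. simulans genome in 1 file and D. sechellia on the same genome in another, so levels are compared within a species. Stage 5 points lie far to the left of stage 2 points for each species, and CG4476 is low at both stages in D. sechellia.

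Axis formation and germ plasm genes were present among the members. Of 20 genes of anterior, posterior and terminal patterning with a stage 2 mean of at least 50, 7 were members, and of 23 germ plasm genes 5 were, against 4.07% of all genes. The medians of both lists, members and others together, were -1.03 and -1.14. The mean of bcd, the anterior determinant, was taken from 358 to 2.31, that of exu, which carries bcd mRNA, from 2894 to 91.5, and that of swa, another factor of bcd localization, from 2603 to 63.2. Members of the terminal system were tor, the receptor (from 1384 to 41), csw, a phosphatase that acts below it (from 183 to 0.892), and fs(1)N, a protein of the vitelline membrane that is needed for its activation (from 1571 to 7.12). Of the dorsal-ventral system, dl, the transcription factor (from 619 to 4.54), and spz, the ligand of Toll (from 873 to 28.5), were members, 2 of 17 genes. Translational regulators were orb (from 1275 to 12.3), a cytoplasmic polyadenylation factor, and pum (from 1040.4 to 33.2), a repressor of hunchback translation. Of 29 genes of mRNA decay and translational control 3 were members, and the list's median was -0.33. The actin nucleators capu (from 250.5 to 3.54) and spir (from 485 to 11.4), which act together in the oocyte, were both members. They were the 2 members among 32 cytoskeleton and cellularization genes (6.25%), a list with a median of 1.01. zpg, a germ cell gap junction protein, was taken from 1794 to 32.9.

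Genes of meiosis and egg activation made up 5 members of 28, and the list's median was -1.71. gnu and plu, which activate the PAN GU kinase at egg activation, were taken from 2610.2 to 14.7 and from 440.2 to 8.34. cort, a meiosis-specific activator of the anaphase-promoting complex, was taken from 273 to 5.61, and mtrm, an inhibitor of Polo kinase in the oocyte, from 3524 to 23. Maternal isoforms of the cytoskeleton were among them too, with gammaTub37C, the maternal gamma-tubulin, taken from 1892 to 8.48 and alphaTub67C, the maternal alpha-tubulin, from 2819 to 41.5. fs(1)Ya, a nuclear envelope protein of the first divisions, was taken from 369 to 2.91. gammaTub37C was the 1 member of 16 centrosome and spindle genes, whose median was -0.46. Of 46 genes of the cleavage cell cycle and checkpoints, fs(1)Ya among them, 3 were members (6.52%), and the median was -0.56.

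A second set of members belonged to metabolism and storage. These groups were formed after the members had been seen and are described only by their counts. Of 8 glycolytic genes 3 were members, namely Gapdh1 (from 2833 to 29.7), Tpi (from 330.4 to 1.99) and Hex-A (from 339 to 3.5), and Ald, which follows Pfk in the pathway, stayed at 461 and 408. GlyP, which breaks down glycogen, and UGP, which makes its precursor, were taken from 2206 to 70.4 and from 1187 to 26.9, whereas GlyS, glycogen synthase, went from 1643 to 4330. These were 2 of 4 glycogen genes. The lipid droplet proteins Lsd-2 and Jabba, the latter the anchor of histones on droplets, were taken from 2558 to 17.5 and from 7509 to 196. They were 2 of 4 genes of lipid storage, of which bmm, a lipase of droplets, went from 608 to 1314. Idh and Men, 2 NADP-dependent dehydrogenases, were taken from 2896 to 39.7 and from 502 to 7.87, as 2 of 6 dehydrogenases looked at. The nuclear receptors ftz-f1 (from 564 to 10.1), Hnf4 (from 525 to 9.89) and Eip75B (from 54.6 to 0.456) were 3 of 9.

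Membrane transporters and channels are described for 9 genes picked from among the members. Transporter genes outside the members were not looked at, so no share of this group is given. The inward rectifier Irk1 was taken from 381 to 0.752, the sodium-calcium exchanger Calx from 652 to 1.33, the potassium channel Ork1 from 386 to 1.6, the ABC transporter E23 from 1129 to 4.52 and the amino acid transporter slif from 772 to 3.07. dmGlut, a glutamate transporter, was taken from 548 to 0.938. Among lists set by function, none of 62 cytoplasmic ribosomal protein genes was a member, and the median of that list was 1.77. None of 64 mitochondrial ribosomal, 52 electron transport, 25 replication licensing or 70 membrane trafficking genes was a member either. Of the members, 86 carry only a CG number, against 2011 of the 4910 genes.

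The loss of the members was then tested in the groups that took no part in the choice. In D. sechellia all 188 members tested were lower at stage 5 than at stage 2, where 32.4% of all genes were called lower. These values come from the file with D. simulans, on the D. simulans genome, where a member kept at most 45.9%. In the file with D. mauritiana, on the D. sechellia genome, the highest share left in D. sechellia was 309%, so a member there rose. The median member kept 1.86% and 1.87% in the 2 files. These shares are over members with a stage 2 mean of at least 5. In hybrids, all members tested were lower in sim x mau (200, 36.4% of all genes), mau x sim (200, 34.6%), sim x sec (191, 35.4%) and mau x sec (185, 34.1%). In sec x mau 184 of 186 were lower, against 34.6% of all genes, and 1, Cyp6a23, a cytochrome P450, was higher. The stage 5 hybrid embryos have mothers of a pure species and the stage 2 ones F1 mothers, so the hybrid contrasts also hold a difference of mothers. These counts were the same whichever embryo was left out.

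The amount left differed between groups by less than the loss itself. Summed over members, 1.43% of the stage 2 value was left in D. simulans, 1.61% in D. mauritiana and 2.36% in D. sechellia. The median member kept 1.16%, 1.5% and 1.86%. The first 2 values are over the 200 members in the file of D. simulans with D. mauritiana, and the third is over 191 members in another file. Within 1 file, over 191 members, the summed share was 1.56% in D. simulans against 2.36% in D. sechellia, and 1.75% in D. mauritiana against 2.33% in D. sechellia. In hybrids the summed share was 1.94% in sim x mau, 2.03% in mau x sim, 2.18% in sim x sec, 2.45% in sec x mau and 2.30% in mau x sec, over 200 members in the first pair of crosses and 191 in the others. The members were chosen for low values in D. simulans and D. mauritiana and not in D. sechellia, and 132 of them were also among the 200 lowest of D. sechellia alone.

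**Figure D2:**
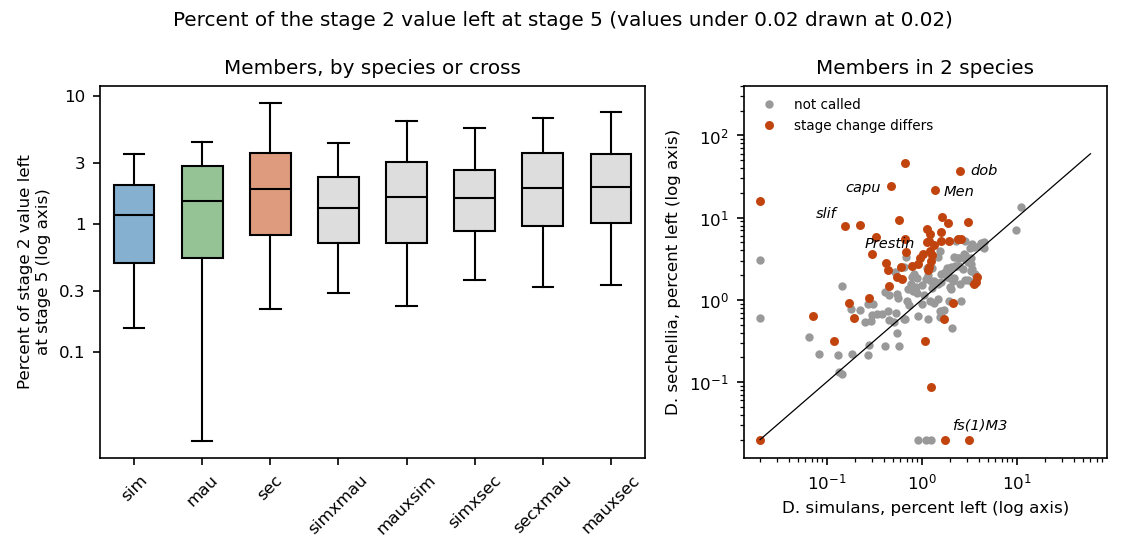
Percent of the stage 2 value left at stage 5 for each member, on log axes, as boxes by species or cross (median, quartiles, whiskers at the 5th and 95th percentiles) and for single members in D. simulans (x) against D. sechellia (y), with members read on 1 genome only left out on the right. Members whose stage change differed between the 2 species are coloured, and most of them lie above the line of equal shares, Men, dob, capu and slif among them.

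At stage 2, the earliest stage sampled, 13% to 19% of the members differed between species. Between D. simulans and D. mauritiana 36 of 200 differed at stage 2, 28 higher in D. simulans and 8 in D. mauritiana, against 37.2% of all genes. Between D. simulans and D. sechellia 37 of 191 differed (21 and 16, 24.9% of all genes), and between D. sechellia and D. mauritiana 24 of 186 (15 and 9, 25.5%). Leaving out the members read on 1 genome only changed the counts to 26 and 7 of 195, 20 and 8 of 180, and 15 and 9 of 185. Of these, 18 and 5, 13 and 5, and 8 and 8 were called in the same direction on both genomes. One of the largest of these differences was that of CG4476, on the D. simulans genome, between D. simulans (1514, 1702 and 1533) and D. sechellia (41.7, 49.5 and 9.54), with a log2 difference of 5.80, SE 0.66, adjusted p = 1.6e-05. Jheh3, a juvenile hormone epoxide hydrolase, had 161, 203 and 199.6 in D. simulans and 18.8, 9.96 and 5.04 in D. mauritiana (log2 difference 4.10, SE 0.50, adjusted p = 3.5e-05), with no overlap. Tpi was at 461, 775 and 612 and 247, 126 and 145 (log2 difference 1.86, SE 0.51, adjusted p = 0.012), a call that was lost without replicate 2 of D. mauritiana. The D. simulans and D. mauritiana count of 36 also rested on single embryos, being 23, 17 and 22 without D. simulans replicates 1, 2 and 3, and 17 and 18 without D. mauritiana replicates 2 and 3. The count of 24 was 11 without D. sechellia replicate 1 and 14 and 13 without D. mauritiana replicates 2 and 3.

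At stage 5, where members with a mean of at least 5 in either species were tested, most of the differences with D. sechellia had the higher level in that species. Against D. simulans 83 of 144 members differed, 61 of them higher in D. sechellia, and 50.5% of all genes differed, 26.9% with D. sechellia higher. The median log2 difference, D. simulans minus D. sechellia, was -0.61 over the members tested and 0.03 over all genes tested. Against D. mauritiana 67 of 126 differed, 46 of them higher in D. sechellia, with 42.3% of all genes called and 18.7% higher in D. sechellia. Between D. simulans and D. mauritiana 57 of 130 differed, 34 of them higher in D. mauritiana, with 55.3% of all genes called and 30.7% higher in D. mauritiana. Without the members read on 1 genome only, 75 of 136 differed from D. simulans (54 higher in D. sechellia), 66 of 125 from D. mauritiana (45 higher), and 54 of 125 between D. simulans and D. mauritiana (33 higher in D. mauritiana). Of calls in the same direction on both genomes, 43 were higher and 12 lower in D. sechellia than in D. simulans. Against D. mauritiana 41 were higher and 17 lower in D. sechellia. Between D. simulans and D. mauritiana 20 were higher in D. mauritiana and 17 in D. simulans. The rule fixes low stage 5 values in the other 2 species but not in D. sechellia. When the 200 members were chosen over all 3 species instead, which kept 176 of them, 52 were higher and 29 lower in D. sechellia than in D. simulans, and 39 higher and 28 lower than in D. mauritiana.

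The stage change itself differed between D. simulans and D. sechellia for 66 of 191 members, against 28.5% of all genes, and the fall was smaller in D. sechellia for 49 (15.8% of all genes in that direction). Without the members read on 1 genome only the smaller fall was in D. sechellia for 48 of 57. Between D. sechellia and D. mauritiana 43 differed (21.2% of all genes), with the smaller fall in D. sechellia for 30 (9.37% of all genes), and between D. simulans and D. mauritiana 50 of 200 (26.8%), with the smaller fall in D. mauritiana for 31. Without the members read on 1 genome only these counts were 42 of 185, 29 of them with the smaller fall in D. sechellia, and 46 of 195, 29 of them with the smaller fall in D. mauritiana. Fewer were called in the same direction on both genomes. Between D. simulans and D. mauritiana the smaller fall was then in D. mauritiana for 15 and in D. simulans for 12, with little lean. Between D. simulans and D. sechellia it was in D. sechellia for 33 and in D. simulans for 5. Between D. sechellia and D. mauritiana it was in D. sechellia for 26 and in D. mauritiana for 10. The count of 50 was 33 without stage 2 D. mauritiana replicate 3. Because low stage 5 values in D. simulans and D. mauritiana entered the choice, a smaller fall in D. sechellia is favoured by it. With the members chosen over all 3 species the fall was smaller in D. sechellia for 41 and larger for 18 of 199 against D. simulans, and smaller for 24 and larger for 16 of 195 against D. mauritiana.

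In both comparisons that involve it, D. sechellia was higher at stage 5 for 29 and lower for 7 of the 114 members tested in both and read on both genomes, against 8.91% and 9.31% of all genes. With the members chosen over all 3 species it was higher for 23 and lower for 9 of 120, a smaller lean. Of the 29, 16 reached a mean of 20 in both files. The stage 5 hybrids show which allele carried the extra reads of these members. In 9 of the 16 the D. sechellia allele received from the father had under 20% of the value it had when received from the mother, comparing mau x sec with sec x mau. In 4 of the 16 (slif, Prestin, CG8321 and capu) it was above the maternal allele in both crosses with a D. sechellia father. dob, which is among the 9, is X-linked. XY embryos carry no paternal X, and all embryos of a cross were averaged whatever their label. The low paternal value of dob is therefore in part set by the design. These groups were formed after the values were seen and carry no test.

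Men, the malic enzyme that makes NADPH, is an example of the first kind. Its exon is listed on chromosome 3R, 12610339 to 12610642, plus strand of the D. simulans assembly. At stage 2 its values were 805, 971 and 729.5 in D. simulans and 1032, 1154 and 910.4 in D. sechellia, whose difference did not pass the test (adjusted p = 0.55). At stage 5 it was at 13.4, 4.46 and 16.7 in D. simulans and 227, 254 and 197 in D. sechellia. The stage 5 groups lay far apart (log2 difference, D. simulans minus D. sechellia, -4.33, SE 0.34, adjusted p = 2.7e-07), as did D. sechellia (197, 253 and 201) and D. mauritiana (9.35, 11.3 and 4.29) in the other file (log2 difference 4.63, SE 0.26, adjusted p = 1.7e-08). Reciprocal hybrids, which carry the same autosomal alleles, differed for 63 of 135 members between sec x mau and mau x sec (39.8% of all genes) and for 73 of 143 between sim x mau and mau x sim (48.2%), and the autosomal members alone gave 53 of 113 and 61 of 114. Men was among them, and its high level went with the mother. It totalled 113 to 225 with a median of 157 in sec x mau and 5.87 to 13.9 with a median of 9.32 in mau x sec (log2 difference 3.99, SE 0.19, adjusted p = 1.8e-16). The D. sechellia allele alone had 104 to 210.1 with a median of 146 when maternal, and 1.23 to 2.31 with a median of 1.59 when paternal. In sim x sec, whose mother is D. simulans, the total was 4.1 to 10.7 with a median of 7.76.

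dob, a putative lipase gene on the X (chromosome X, 14113378 to 14114022, plus strand), had its high level with a D. sechellia mother too. XY embryos carry only the mother's X, so reciprocal crosses of X-linked genes also differ in the alleles present. Stage 5 values were 84.5, 92.4 and 62.1 in D. sechellia and 2.34, 4.53 and 0 in D. mauritiana (log2 difference 4.91, SE 0.46, adjusted p = 1.6e-06), and at stage 2 213, 212 and 206 and 212, 225 and 223 (adjusted p = 0.94). In sec x mau the total was 56.1 to 110.5 with a median of 71.4 and in mau x sec 3.65 to 11.1 with a median of 6.4 (log2 difference 3.35, SE 0.27, adjusted p = 1.4e-11). No embryo of the first cross overlapped the second. In the embryos labelled XX of sec x mau, 0 of 181 reads (0%, exact 95% interval 0% to 2.02%) were paternal.

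GlyP, glycogen phosphorylase, showed the pattern in D. mauritiana as well, and its exon is listed on chromosome 2L, 2024066 to 2024500, plus strand. At stage 5 it was at 12.6, 9.32 and 29.8 in D. simulans and 104, 130.3 and 114 in D. mauritiana (log2 difference -2.84, SE 0.30, adjusted p = 4.1e-06). The stage 2 values of 2388, 2974 and 2086 and 2042, 1663 and 1776 ran the other way and did not pass the test (adjusted p = 0.26). The stage change differed by a log2 value of -3.27, SE 0.42, adjusted p = 8.5e-05. With a D. mauritiana mother the total was 111 to 248 with a median of 208, and with a D. simulans mother 14.8 to 25.3 with a median of 17.4 (log2 difference, sim x mau minus mau x sim, -3.35, SE 0.18, adjusted p = 3.8e-15). In mau x sim 3 of 827 reads (0.363%, exact 95% interval 0.0749% to 1.06%) were paternal. D. sechellia embryos were also above D. simulans (168, 116 and 95.8 against 17.4, 11.2 and 31.4). sec x mau had 70.9 to 134 with a median of 90 and mau x sec 63.9 to 129 with a median of 91.4, a log2 difference of 0.02, SE 0.16, adjusted p = 0.95.

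The reverse was seen for Jafrac1, a peroxiredoxin on the X, which was higher in D. simulans, with 141, 82.8 and 155 against 19, 11 and 8.91 in D. mauritiana at stage 5 (log2 difference 3.20, SE 0.30, adjusted p = 1.6e-06). It was already higher at stage 2 (log2 difference 1.26, SE 0.29, adjusted p = 0.0045). The labels do not give the sex of the parental embryos. sim x mau had 87.8 to 114 with a median of 93.9 and mau x sim 17 to 47 with a median of 32.6 (log2 difference 1.58, SE 0.20, adjusted p = 1.2e-07). fs(1)M3, an X-linked gene needed for the vitelline membrane, had its lowest levels in D. sechellia. Its stage 5 values there were 0, 3.69 and 1.88, against 23.4, 15.9 and 30 in D. mauritiana (log2 difference -3.29, SE 0.49, adjusted p = 0.00013). sec x mau had 0 to 3.46 with a median of 1.47 and mau x sec 7.82 to 24.7 with a median of 12.3 (log2 difference -2.57, SE 0.31, adjusted p = 6.9e-08). At stage 2 D. sechellia and D. mauritiana had 573, 222 and 484 and 589, 857 and 672, a difference that did not pass the test (adjusted p = 0.24).

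Among autosomal members higher in D. mauritiana than in D. simulans at stage 5 with a mean of at least 20, 12 of 16 had a paternal D. mauritiana allele under 20% of the maternal one, with a median of 30 when maternal and 3.77 when paternal. For members higher in D. mauritiana than in D. sechellia this held for 8 of 10. For members higher in D. simulans than in D. mauritiana it held for 4 of 9, and 3 had a paternal allele at 50% or more of the maternal one. For members higher in D. sechellia than in D. mauritiana it held for 11 of 21, and 6 were at 50% or more. The members were taken from called differences, so these medians describe them only.

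slif, which imports amino acids and is known for its part in growth control of the fat body, is an example of the second kind. Its exon is listed on chromosome 3L, 22269097 to 22269205, plus strand. At stage 5 it was at 2.68, 2.23 and 0 in D. simulans and 66.3, 77 and 24.8 in D. sechellia (log2 difference -4.49, SE 0.48, adjusted p = 6.3e-06). At stage 2 the values were 937, 1197 and 1017 and 921, 604 and 596, which did not pass the test (adjusted p = 0.41). All D. sechellia embryos were thus below the D. simulans embryos at stage 2 and above them at stage 5. In sim x sec the paternal D. sechellia allele had 16.6 to 30.7 with a median of 23.2 and the maternal D. simulans allele 2.05 to 5.04 with a median of 3.27 (log2 difference, mother minus father, -2.47, SE 0.24, adjusted p = 1.4e-05). The D. sechellia allele had 13.6 to 31 with a median of 23.7 in mau x sec, where it is paternal, and 16.9 to 32.9 with a median of 24.3 in sec x mau, where it is maternal. The total of the 2 reciprocal crosses differed by a log2 value of 0.04, SE 0.29, adjusted p = 0.93. Paternal reads were 91 of 105 reads (86.7%, exact 95% interval 78.6% to 92.5%) in sim x sec and 98 of 127 reads (77.2%) in mau x sec. At stage 2 in embryos of hybrid mothers the D. sechellia allele made up 37.3% of reads in sec x mau and 34.7% in mau x sec.

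capu, the actin nucleator, has an exon listed on chromosome 2L, 3754536 to 3754808, minus strand. Its stage 5 values were 0, 1.12 and 4.18 in D. simulans, 38.7, 80.7 and 53.2 in D. sechellia, and in the other file 0, 11.3 and 4.29 in D. mauritiana. The log2 difference was -4.66, SE 0.47, adjusted p = 3.2e-06 for D. simulans minus D. sechellia and 3.61, SE 0.64, adjusted p = 0.00051 for D. sechellia minus D. mauritiana. At stage 2 neither pair passed the test, with 376, 427 and 308 in D. simulans and 217.7, 275 and 216 in D. sechellia (adjusted p = 0.35). The paternal D. sechellia allele had 53 to 161 with a median of 65.2 in mau x sec and the maternal D. mauritiana allele 0 to 5.87 with a median of 1.53 (mother minus father, -4.84, SE 0.30, adjusted p = 3.3e-07), and 367 of 376 reads (97.6%, exact 95% interval 95.5% to 98.9%) were paternal. In sim x sec 63 of 73 reads (86.3%) were paternal. In sec x mau, with a D. sechellia mother, the total was 22.5 to 38.5 with a median of 26.2, below every embryo of mau x sec (log2 difference -1.55, SE 0.37, adjusted p = 0.0012).

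Prestin, an anion transporter, and CG8321, a gene without a described name, did the same. Prestin was at 61.6, 25.9 and 26.3 in stage 5 D. sechellia and 4.68, 0 and 0 in D. mauritiana (log2 difference 4.33, SE 0.55, adjusted p = 2.9e-05), and 44 of 58 reads (75.9%) were paternal in mau x sec and 57 of 70 reads (81.4%) in sim x sec. In sec x mau 0 of 75 reads were paternal, which with an exact 95% interval allows up to 4.80%. CG8321 was at 31.7, 16.6 and 24.5 in D. sechellia and 2.34, 2.27 and 4.29 in D. mauritiana (log2 difference 2.66, SE 0.31, adjusted p = 1.3e-05), and its paternal reads were 58 of 68 reads (85.3%) in mau x sec and 82 of 88 reads (93.2%) in sim x sec. CG31075 was at 16.6, 9.39 and 12.4 in D. sechellia and at 0 in all stage 5 embryos of D. simulans and D. mauritiana (adjusted p = 7.1e-06 against D. simulans), and its paternal reads were 20 of 25 reads (80%) in sim x sec. The same direction was seen on the second genome of each pair, where the paternal share was 90.4% for slif, 90.3% for capu, 83.2% for Prestin and 95.9% for CG8321 in sim x sec.

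**Figure D3:**
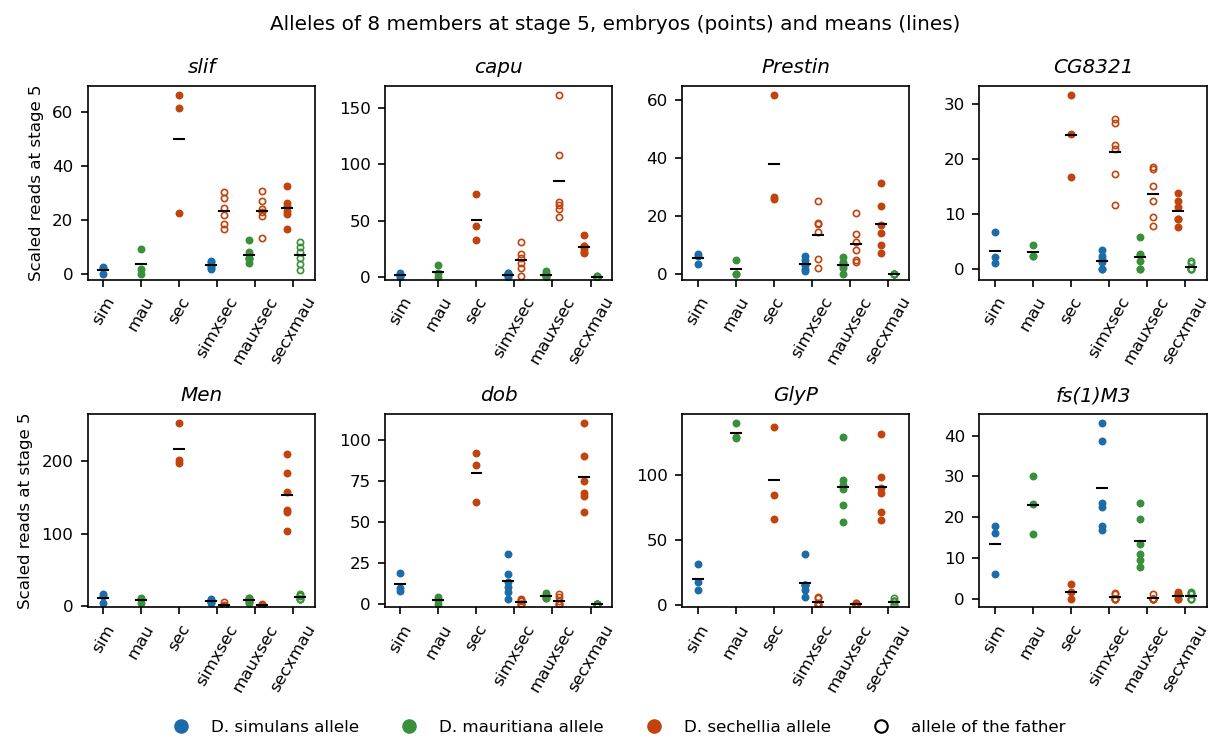
Scaled reads at stage 5 (y) of each allele in embryos of the parental species (own allele) and of 3 crosses with a D. sechellia parent, for 8 members, with points for embryos, lines for means and open points for the father's allele. D. simulans and sim x sec come from 1 file and the rest from the other, normalized separately, so levels are compared within a file. The D. sechellia allele is high from either parent in the upper row, and only from a D. sechellia mother for Men and dob. dob is X-linked, and XY embryos, which are drawn too, carry no paternal X.

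Alleles of the other species could be high from either parent too. CG33156 had a paternal share of 190 of 288 reads (66%) in mau x sim and 60 of 284 reads (21.1%) in sim x mau, so that the D. simulans allele was the higher one in both. On the D. mauritiana genome the shares were 69.0% and 22.5%. CG7091 was at 87 of 120 reads (72.5%) in mau x sim and 10 of 177 reads (5.65%) in sim x mau, and on the D. mauritiana genome the mau x sim share was 47.9%. CG17292 showed the D. mauritiana allele high, with 44 of 69 reads (63.8%) paternal in sec x mau and 4 of 86 reads (4.65%) in mau x sec.

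Over all members the mother's allele was the higher one in most tests at stage 5. Members with the mother's allele higher were 102 of 128 tested in sim x mau (74.6% of all genes), 96 of 131 in mau x sim (61.5%), 107 of 136 in sim x sec (73.6%), 105 of 120 in sec x mau (73.8%) and 81 of 120 in mau x sec (61.2%). These are 79.7%, 73.3%, 78.7%, 87.5% and 67.5% of the members, not far from the shares of all genes. On autosomes alone mau x sec had 71 of 100. The father's allele was higher for 0, 3, 6, 2 and 6 members, and for 4.63%, 10.2%, 5.96%, 6.03% and 9.54% of all genes. In either direction, 102, 99, 113, 107 and 87 members were called, and 79.2%, 71.7%, 79.6%, 79.9% and 70.7% of all genes. The median log2 difference, mother minus father, was 2.20, 1.96, 2.15, 2.56 and 1.66 for the members, and 0.99, 0.75, 1.02, 1.23 and 1.28 for all genes tested in the same crosses. The tested members are those with a mean total of at least 5 at stage 5.

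The father's share of all reads of autosomal members was 10% ± 2.39 (SD, n = 6) in sim x mau and 20.9% ± 3.09 in mau x sim. It was 13.4% ± 1.73 in sim x sec, 11.8% ± 1.61 in sec x mau and 23.7% ± 4.48 in mau x sec. In stage 5 embryos of the mother's species, where reads of the father's species are wrongly assigned, this share was 3.42%, 5.78%, 3.2%, 2.58% and 6.60% in the same order. Every hybrid embryo was above every embryo of its mother's species in all 5 crosses. Over all autosomal genes the father's share in the hybrids was 22.4% to 25.3%, 23.1% to 26.3%, 19.4% to 22.7%, 18.6% to 22.3% and 21.5% to 22.7% in the same order. The members of mau x sec, at 23.7%, were thus not below all autosomal genes. In mau x sim and mau x sec, where the members' shares were highest, reads were mapped to the father's genome. X-linked members followed the sex labels in 4 crosses, with 25.8% against 3.51% in embryos labelled XX and XY of sim x mau, 20.9% against 2.21% in mau x sim, 24.9% against 3.45% in sim x sec and 11.5% against 6.21% in sec x mau. In mau x sec they were at 12.9% in the libraries labelled XX and 11.3% in those labelled XY.

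**Figure D4:**
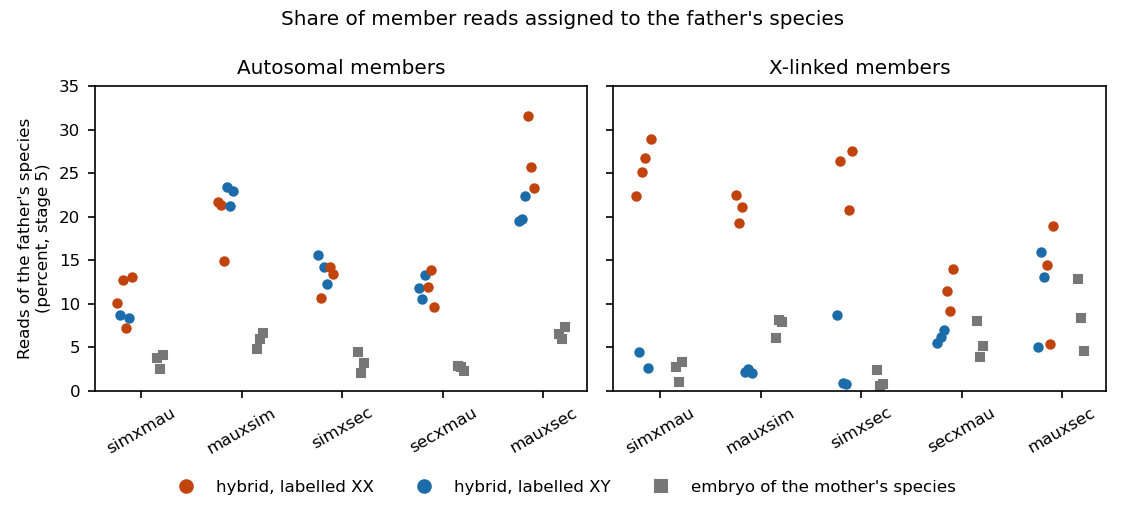
Percent of stage 5 reads (y) of autosomal and X-linked members that were assigned to the father's species, per embryo, by cross, for hybrids labelled XX or XY and for embryos of the mother's species, where such reads are wrongly assigned. Autosomal shares of all hybrids lie above the squares, and the X-linked shares separate by label in all crosses but mau x sec.

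Among the lowest members, BicC had paternal reads in all 5 crosses, from 17 of 155 reads (11%) in sec x mau to 27 of 68 reads (39.7%) in mau x sec. For osk the shares ran from 7 of 79 reads (8.86%) in sim x mau to 17 of 65 reads (26.2%) in mau x sec. Embryos of the mother's species had few reads of these genes. In the order sim x mau, mau x sim, sim x sec, sec x mau and mau x sec, 6 of 25, 5 of 10, 4 of 15, 2 of 18 and 6 of 10 were wrongly assigned for BicC. For osk they were 6 of 32, 10 of 40, 8 of 25, 0 of 28 and 5 of 23. The paternal share of BicC was above this wrong assignment only in sim x mau (25% against 24%), and that of osk in mau x sim (25.5% against 25%), sec x mau (13.2% against 0) and mau x sec (26.2% against 21.7%). Over the 86 members with at least 20 reads in each of the 5 crosses the median of the mean share was 16.7%, 31 had a mean under 10% and 6 lay between 35% and 65%. A different limit was used over the 86 members. The lower end of a member's interval had to exceed the upper end of its wrong assignment at stage 2. It also had to exceed the highest share over all members in any stage 5 embryo of the mother's species. By this limit 23 members were above wrong assignment in all 5 crosses and 20 in none. BicC passed this limit in all 5 crosses and osk in 4, so it was easier to pass than their own stage 5 wrong assignment. Besides slif (56.1%) and CG33156 (40.3%), the highest means were those of Aef1, a zinc finger repressor (37.9%), CG14764 (37.6%), CG30463 (35.3%) and egl (35%), a partner of BicD in mRNA transport.

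The members that kept the most reads at stage 5 give the shares with the narrowest intervals, and they differed widely. Jabba, the lipid droplet protein with the highest stage 5 mean, was read almost only from the mother's allele in the crosses with a D. simulans mother. There 23 of 3215 reads (0.715%, exact 95% interval 0.454% to 1.07%) were paternal in sim x mau and 33 of 2975 reads (1.11%) in sim x sec. Wrong assignment of Jabba in stage 5 D. simulans was 1.52% and 1.08% in the same files, so no paternal reads were detectable above it. Hsp26, a small heat shock protein, was at 41 of 1623 reads (2.53%) in sim x mau and at 220 of 1124 reads (19.6%) in sec x mau, where 0 reads of stage 5 D. sechellia were wrongly assigned. swa, the X-linked factor of bcd localization, had stage 5 values of 109, 129 and 129 in D. simulans and 74, 119 and 114 in D. mauritiana. In embryos labelled XX 287 of 668 reads (43%, exact 95% interval 39.2% to 46.8%) were of the father's allele in sim x mau, 167 of 371 reads (45%) in mau x sim and 271 of 635 reads (42.7%) in sim x sec, against 0 of 276 wrongly assigned reads in D. simulans. The alleles of swa were thus close to balance in these embryos, whose stage 2 counterparts in D. simulans and D. mauritiana had 3278, 2824 and 3016 and 2304, 2062 and 2293 scaled reads. On the D. sechellia genome swa had almost no reads at stage 5 (3 in the embryos labelled XX of sec x mau), so its shares there are not given. CG14764 ranged from 49 of 251 reads (19.5%) in sec x mau to 159 of 281 reads (56.6%) in mau x sec, where 2 of 78 reads were wrongly assigned.

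At stage 2, in embryos of hybrid mothers, the alleles of most members were close to equal. The median share of the first-named species of a pair was 51.5% in sim x mau and mau x sim (D. simulans), 52.9% in sim x sec (D. simulans) and 51.1% in sec x mau and mau x sec (D. sechellia). On the other genome the medians were 48.6%, 49.1%, 49%, 48.0% and 47.9%, so they moved toward the genome the reads were mapped to. Shares of 40% to 60% were found in 173 of 200, 176 of 200, 148 of 190, 137 of 183 and 137 of 184 members with at least 100 reads. Allele differences were called for 130 of 200 members in sim x mau (47.4% of all genes), 100 of 200 in mau x sim (38.0%), 139 of 191 in sim x sec (52.9%), 124 of 185 in sec x mau (54.8%) and 124 of 185 in mau x sec (57.2%). Calls in the same direction on both genomes were fewer, at 72, 53, 80, 78 and 84, and 8 to 16 per cross pointed in opposite directions. BicC and osk were near balance, with 48.5% to 50% and 48.8% to 53.2% of reads from the first-named species of the pair.

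In all 4 crosses with D. mauritiana its allele was called higher for 12 and lower for 31 of 185 members, against 3.46% and 13.1% of all genes. On the D. mauritiana genome the counts turned to 35 higher and 7 lower, and 11 and 7 members were called in the same direction in all 4 crosses on both genomes. The lean to 1 side thus followed the genome the reads were mapped to. The 10 members with the largest mean difference are named. Exn, a guanine nucleotide exchange factor gene, had 25.3% D. simulans reads in sim x mau and 21.8% in mau x sim, and 0.122% and 0.615% D. sechellia reads in sec x mau and mau x sec. In the parental species it was at 4.02, 6.66 and 3.41 in D. sechellia and 408, 331.8 and 343 in D. mauritiana at stage 2 (log2 difference -6.03, SE 0.60, adjusted p = 6.7e-06), so the D. sechellia allele was nearly unread in its own species and in hybrids. Galphaf, a G protein alpha subunit, had 1.39% and 6.11% D. sechellia reads, and 4.52, 4.24 and 9.38 against 166, 151 and 229.9 in the parental species (log2 difference -4.75, SE 0.44, adjusted p = 3.5e-06). CG5455 and CG6293 also had the D. mauritiana allele higher in all 4 crosses, with 17.7% and 24.1% D. sechellia reads in sec x mau. The D. mauritiana allele was the lower one for Jheh3, plu, foxo, a transcription factor of the insulin pathway, and CG13741. Jheh3 had 70.2% D. simulans and 67.3% D. sechellia reads. For plu the shares of 65.6% and 74.6% became 56.2% and 50.9% on the D. mauritiana genome. CG15820 and CG32365 were called lower in D. mauritiana as well, but on the other genome the sign turned for CG15820 in the crosses with D. simulans and for CG32365 in all 4.

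**Figure D5:**
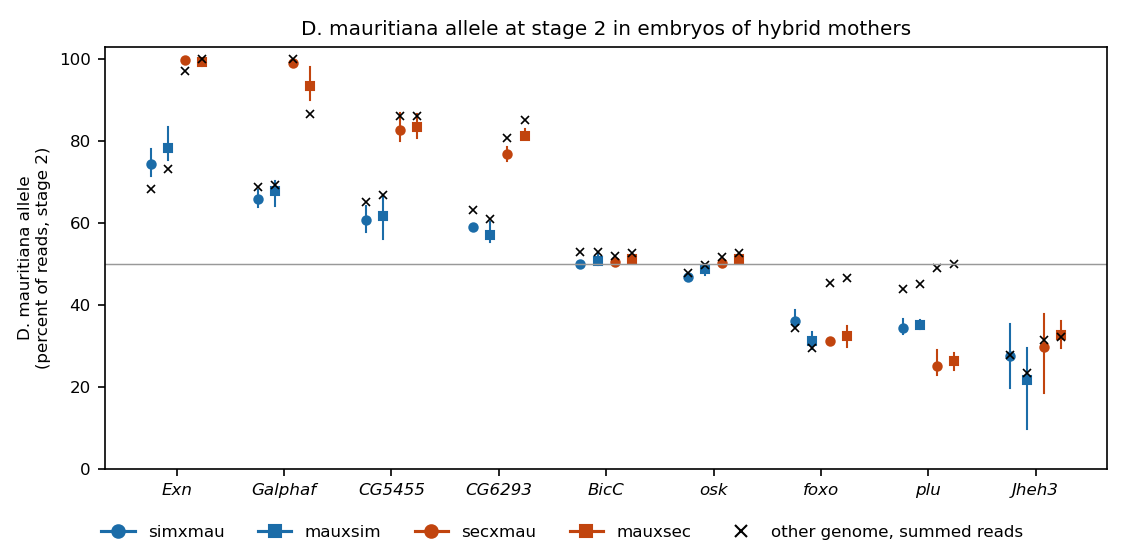
Percent of stage 2 reads from the D. mauritiana allele (y) in embryos of hybrid mothers, for 7 of these members and for BicC and osk, with the mean of 3 embryos, a line from the lowest to the highest embryo, and crosses for reads mapped to the D. mauritiana genome. Exn and Galphaf have over 90% D. mauritiana reads with D. sechellia, BicC and osk lie near 50%, and plu moves toward 50% with the genome.

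The study's scheme sorts genes into those that changed in cis, where the alleles differ within a hybrid, and in trans, where they differ only between species. Here 95% beta intervals (prior 0.5 per allele) on reads summed over embryos took the place of the study's Poisson Gamma model. Such intervals leave out the spread between embryos and narrow as reads increase. The members had a median of 490 at stage 2, against 359 over the 4910 genes, and an effect of depth was not tested. With the study's margin of 0.49 to 0.51, 92 members of 200 kept a call on both genomes in sim x mau. Of these 30 were cis + trans, 28 trans, 13 cis and 4 conserved. Of the members kept 4.35% were conserved, and of all genes kept 15.1% were conserved, 12.7% cis + trans and 46.7% trans. In mau x sim 7.22% of the members kept and 14.8% of all genes kept were conserved. With a margin of 0.45 to 0.55, 62 of 130 members kept (47.7%) were conserved, against 56.3% of all genes kept, so the make-up of the categories rests on the margin.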

How the data were processed

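Per the study's methods, the authors trimmed reads with Cutadapt (1.7.1), aligned them with TopHat2 (2.0.13) to both species' genomes of each pair, found variant sites with Samtools, Picard and GATK, counted reads over these sites per gene and allele, and scaled them by the upper quantile across the samples of a pair. The values deposited by the authors are therefore scaled signal, not counts. Whether a read over several sites was counted once is not given in the sources used here. Values of each library were whole multiples of a smallest step (100% of values within 0.01), which gave back reads for an edgeR (4.0.16) alternative, and every table was normalized separately.

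D. simulans and its pairs were read on the D. simulans genome, and sec x mau on the D. sechellia genome, and the other genome was an alternative. The mean of the rule takes each species on its own genome. Tests were two-sided limma (3.58.1, R 4.3.3, trend) on log2(value + 1), for genes with a mean of at least 5 in a group compared, with Benjamini-Hochberg adjustment over all genes tested and a threshold of 0.05. All parental embryos of a pair shared a fit. Fold changes on this scale understate changes of low genes. Allele tests took the difference within an embryo, and X-linked genes at stage 5 the embryos labelled XX. Exact binomial intervals (95%) cover counting error only. The limma script was tested on simulated data.

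The members and lists were chosen with earlier results of these data known. The genes named were the 20 lowest members, those at the limit, the largest called species differences (10 in stage change, 5 per stage), up to 10 with stage 2 allele calls in most crosses, the 10 highest paternal shares, and up to 4 per list. Members read on 1 genome only, or with a role described in the text, were set aside from or added to these after the values were seen. Deviations of same-numbered D. sechellia embryos of stages 2 and 5 had correlations of 0.106, 0.307 and 0.644 in the file with D. simulans. In the file with D. mauritiana they were 0.192, 0.392 and 0.760. With the replicate block 188 members were again lower at stage 5 in D. sechellia. Alternatives were other pseudocounts, minimums, genomes, edgeR, the block and leaving out each embryo. A reference genome was not used here, so no sequence is printed.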

Additional observations from a re-analysis of the deposited data

Results flagged for a closer look

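Among 44 groups of 6 stage 5 embryos checked for a single embryo far from the rest, 5 had one, where chance gives about 1 in 20. The lowest paternal share of autosomal members in mau x sim was 14.8%, apart from the other 5 embryos. The highest embryo had a total of 26.2 scaled reads for CG7627 in mau x sim, and in mau x sec 45.6 for CG7627, 38.3 for osk and 30.8 for gammaTub37C.

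The stage change differed between species by a test of the difference itself for the following members. On the log2 scale, D. simulans minus D. mauritiana, it differed by -3.27 for GlyP, -2.80 for Jheh3 and -2.78 for GILT3, a lysosomal thiol reductase family gene. D. simulans minus D. sechellia, it differed by -5.94 for Cyp6a23, -5.91 for CG31075 and -5.30 for capu. The value of Cyp6a23 rests on reads that one of the genomes does not give, and that of CG31075 depends on the value added before the log, because all stage 5 D. simulans embryos were at 0. D. sechellia minus D. mauritiana, it differed by 5.14 for Exn, 4.98 for dob and 4.89 for CG4476. For Exn and CG4476 D. sechellia was already below D. mauritiana at stage 2.

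In mau x sec at stage 5 the father's share of X-linked reads stood against the sex label in 4 libraries. It was 20.8% and 21.2% in replicates 2 and 3, labelled XY, and 1.09% and 12% in replicates 4 and 5, labelled XX. The cause was not tested, and no sample was moved to another group.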

How the results depend on the processing

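The lower level of the members at stage 5 in D. sechellia and in hybrids gave the same counts in every run that left out an embryo. Differences between species at stage 2 rested most on the processing. For D. simulans and D. mauritiana, 36 calls became 67 with a pseudocount of 5, 17 with no minimum, 95 with edgeR on recovered reads (2401 of all genes, and 2079 with limma), and 17 to 33 (32 without D. mauritiana replicate 1) without single embryos. For D. simulans and D. sechellia 37 became 68 with edgeR. For D. sechellia and D. mauritiana 24 became 41 with a pseudocount of 5, 14 with no minimum, 64 with edgeR, and 11 to 24 (21 without D. mauritiana replicate 1) without single embryos. The difference in stage change between D. simulans and D. mauritiana, with 50 calls, fell to 25 with no minimum, 31 with edgeR and 33 to 51 without single embryos, and that of D. sechellia and D. mauritiana from 43 to 28 with no minimum. A minimum of 20, which tests fewer members, gave 29, 48 and 39 calls at stage 5 for D. simulans with D. mauritiana, D. simulans with D. sechellia and D. sechellia with D. mauritiana, 41 for sim x mau with mau x sim, and 39 for sec x mau with mau x sec. With it, allele calls at stage 5 were 45 in sim x mau, 50 in mau x sim, 52 in sim x sec, 51 in sec x mau and 36 in mau x sec. With no minimum, allele calls at stage 2 were 45, 17, 73, 58 and 74 in the same order. Requiring 1 direction on both genomes, chosen after seeing the data, left 72, 53, 80 and 78 in the first 4 crosses.

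On the other genome the sign turned for Cyp6a23 between D. simulans and D. sechellia at stage 2 (-2.66), for CG15820 (-0.78 in sim x mau and 0.59 in mau x sim) and for CG32365 (-0.40, 0.43, -0.27 and 0.17 in sim x mau, mau x sim, sec x mau and mau x sec). Of the other values of named members 1173 kept direction and call, and 33 kept the direction but lost the call. The cause was not tested. Counts by regulatory category moved in 65 of 90 alternatives. Other forms of the rule kept 180 to 199 of the 200 members, and 194 to 200 without single embryos.

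Apart from D. sechellia across stages, correlations of same-numbered embryos ran from -0.323 to 0.576. The lowest was that of replicate 1 of D. simulans and D. sechellia at stage 2. The highest was that of replicate 1 of D. sechellia and D. mauritiana at stage 2. Correlations of embryos with different numbers are not given here, so whether the numbers pair embryos was not tested. With the replicate block the species counts were 39, 60 and 49 for D. simulans and D. mauritiana (stage 2, stage 5, stage change), 39, 84 and 68 for D. simulans and D. sechellia, and 26, 71 and 45 for D. sechellia and D. mauritiana, and the reciprocal crosses gave 73 and 66. At stage 5 members had few reads, so shares of single members carry wide intervals.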

Other observations

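Some members outside the groups described above also differed between species. CG4860 was at 32.4, 48.4 and 44.5 in stage 2 D. simulans and 1.1, 1.27 and 0 in D. sechellia (log2 difference 4.65, SE 0.43, adjusted p = 1.8e-06, limma), and CG9265 at 283, 333 and 321 and 75.1, 25.4 and 32.1 (log2 difference 2.95, SE 0.50, adjusted p = 0.00066). Evi5, a Rab GTPase-activating protein, kept more in D. simulans at stage 5, with 7.57, 16.6 and 15.9 against 0, 3.67 and 0 in D. mauritiana (log2 difference 3.03, SE 0.48, adjusted p = 0.00015). CG6084, an aldo-keto reductase family gene, went the other way, with 3.79, 7.25 and 5.96 against 79.7, 36.7 and 39.2 (log2 difference -2.93, SE 0.26, adjusted p = 9.2e-07). C1GalTA, a galactosyltransferase, was at 14.1, 12.9 and 7.53 in stage 5 D. sechellia and 0, 0 and 0 in D. mauritiana (adjusted p = 5.4e-07), and 35 of 41 reads (85.4%) were paternal in mau x sec.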
